A study of Mus musculus with 15 samples.

Results

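Intact dental mesenchyme was compared with the cells that trypsin releases from it. The comparison set 1 unreplicated RNA-seq library made from tissue against 3 libraries of freshly isolated mouse dental mesenchymal cells (mDMCs), harvested at 0 h before any culture. Every transcript with a mouse gene symbol was taken, 11973 of the 12089 transcripts in the deposited table, from 4 of the 15 libraries of the series. All samples came from ICR mouse embryos, an outbred strain, at embryonic day E14.5. By the study's methods, the starting material was the lower first molar germ, freed of its epithelium by enzyme, and suspensions were made from what remained by trypsin and sieving. The other libraries are mDMCs cultured with serum for 12, 24, 36 or 48 h, and they are quoted only beside genes of this comparison. The labels do not say whether the libraries at 0 h came from separate dissections, so the spread between them may be partly technical. With 1 tissue library no test was made, and each gene was judged against the range of the 3 libraries at 0 h.

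Dental mesenchyme is the neural crest-derived tissue under and within the tooth epithelium, and at the cap stage it can instruct other epithelia to form a tooth. Its identity rests on homeobox and other transcription factors such as Msx1, Pax9 and the Dlx family, and on signals exchanged with the epithelium. Trypsin digests the matrix and surface proteins that hold the cells, and handling of live tissue is known to induce immediate early genes, the transcription factors and feedback regulators switched on without new protein synthesis. A dissected fragment also holds vessels, blood, nerves, phagocytes and the edges of the neighbouring bone and muscle.

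The values are expression scores that the authors had normalized so that every library has nearly the same distribution. The median score was 721 in the tissue, its 10 highest transcripts shared the largest score of 127101, and differences at that ceiling cannot be seen. Differences are given as log2(score + 1) of the tissue minus the mean of the same quantity over the 3 libraries at 0 h, and folds are taken on that scale. A transcript was called higher or lower when the tissue lay outside the range at 0 h and differed from the mean by more than 2-fold. The depth of the libraries is unknown, so no counting error can be given.

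The tissue lay above all libraries at 0 h in 3567 transcripts (29.8%) and below all of them in 3826 (32%). By the full rule 293 transcripts were called higher (2.45%) and 139 lower (1.16%). These shares are the background against which the counts below are read. The median difference over all transcripts was -0.01. The root mean square log2 difference of the tissue was 0.575 from replicate 1, 0.480 from replicate 2 and 0.625 from replicate 3, while the 3 libraries at 0 h differed from each other by 0.421 to 0.548. The distances of the tissue thus ran from within the range of the distances among freshly isolated cells to slightly beyond it. Calls were most common among transcripts of low score, at 14.2% of the 1208 transcripts with a mean under 100 and 1.07% of the 2432 with a mean over 2000.

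**Figure D1:**
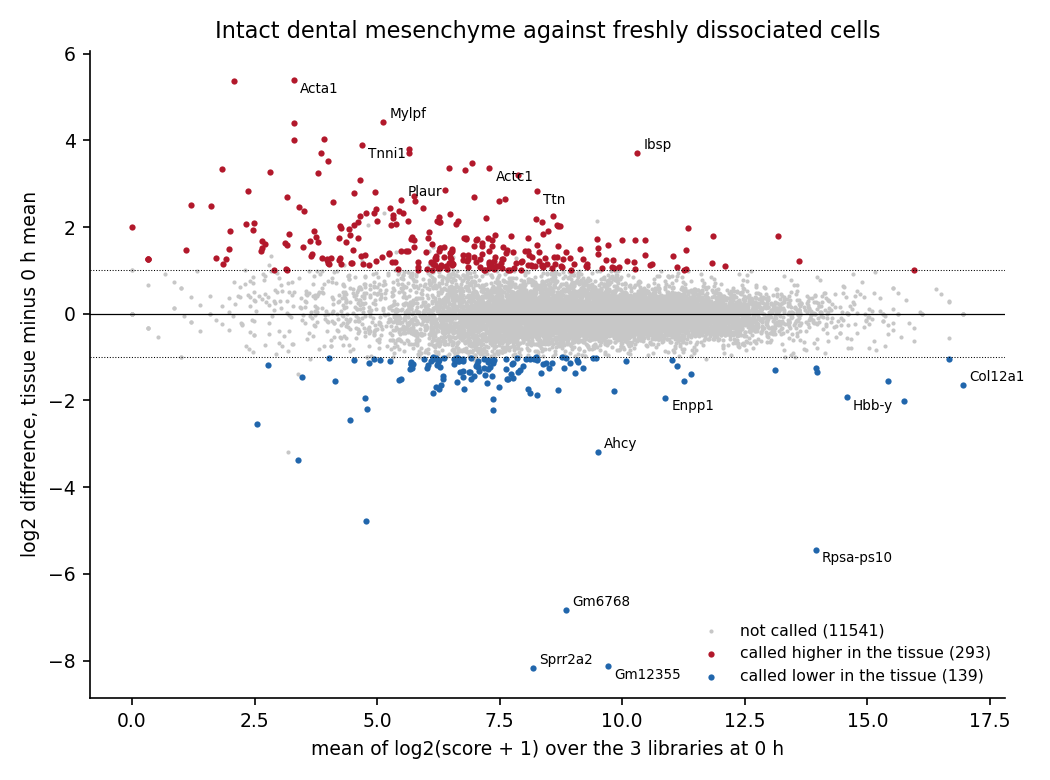
Each point is 1 of 11973 transcripts, with the mean of log2(score + 1) over the 3 libraries at 0 h on the horizontal axis and the log2 difference of the tissue from that mean on the vertical axis. Red points were called higher in the tissue (293), blue points lower (139), grey points were not called, dotted lines mark 2-fold, and some of the named genes are labelled.

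The skeletal muscle genes stood farthest apart. Of 25 listed genes 15 were measured, all 15 lay above the range at 0 h and 14 were called higher, with a median log2 difference of 3.31. Acta1, the actin of skeletal muscle thin filaments (chr8:123891769-123894751, minus strand, 7 exons, GRCm38), had scores of 15, 14 and 3 at 0 h and 412 in the tissue, a 41.9-fold difference (log2 difference 5.39, with an SD of 1.13 at 0 h). Mylpf, the fast muscle regulatory light chain, had 69, 49 and 11 against 740. Actc1, the actin of heart and embryonic muscle, had 280, 206 and 65 against 1603. In each of these 3 genes the lowest library at 0 h was replicate 3, and the tissue was above the highest.

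The other contractile proteins followed the same order. The giant sarcomere spring Ttn had scores of 439, 324 and 198 at 0 h and 2162 in the tissue. The troponin subunit Tnnt1 had 216, 176 and 35 against 1104. The embryonic myosin heavy chain Myh3 had 462, 355 and 76 against 2136. Myog, the transcription factor of muscle differentiation, had 291, 209 and 31 against 808, so the difference covered a regulator as well as structural genes. Des, Tnni1, Tnnt2, Tnnc1, Neb, Myl1 and Myl4 were also called, with log2 differences between 1.56 (Myl4) and 4.40 (Tnnc1). The member that was not called, the acetylcholine receptor subunit Chrna1, had 48, 40 and 25 against 71. Replicate 3 was the lowest of the libraries at 0 h in 14 of the 15 genes and replicate 1 the highest in 12, so the muscle genes also varied among the freshly isolated cells. Summed over the 15 genes, the score was 2276, 1768 and 695 in the 3 libraries at 0 h and 11534 in the tissue. Without replicate 3 the list still had 14 members called higher, with a median of 2.52. Some of these genes had higher means in culture than at 0 h. At 36 h the means were 302 for Acta1, 216 for Tnnt2 and 282 for Tnnc1, against 10.7, 10 and 10.3 at 0 h. For Tnnt2 and Tnnc1 these means were above the tissue scores of 158 and 206. Tnnt1 averaged 142 at 0 h, 157 at 36 h and 87 at 48 h. Both comparisons share the libraries at 0 h. In a bulk sample, fewer cells of a type and less RNA per cell cannot be told apart.

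The promoters of both sarcomeric actins are shown because CArG boxes, the sites read by serum response factor, are known in actin promoters. They are the 250 bases before the RefSeq start, 5′ to 3′ on the gene's strand (GRCm38.p6), and the capitals mark the CArG box. Acta1 (chr8:123894776-123895025, minus strand) has it from base 73 to base 64 before the start, and Actc1 (chr2:114052876-114053125, minus strand) from base 47 to base 38.
Acta1: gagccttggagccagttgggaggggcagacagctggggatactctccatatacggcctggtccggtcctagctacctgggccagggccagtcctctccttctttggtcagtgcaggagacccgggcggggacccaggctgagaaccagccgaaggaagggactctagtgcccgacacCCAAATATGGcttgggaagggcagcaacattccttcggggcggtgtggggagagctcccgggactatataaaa
Actc1: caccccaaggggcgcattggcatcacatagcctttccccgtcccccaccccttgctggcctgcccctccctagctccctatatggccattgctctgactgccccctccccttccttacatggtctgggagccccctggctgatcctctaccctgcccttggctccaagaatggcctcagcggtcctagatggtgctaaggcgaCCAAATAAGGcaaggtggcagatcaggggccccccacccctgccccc
Promoter windows of 300 bases (250 before to 50 after the start) were found within 1000 bases of the transcript's start for 12 of the 15 muscle genes and for 8534 of the 11960 genes compared. A CArG box on either strand stood in 2 of the 12 muscle windows and in 1.24% of all windows. The E-box CAGCTG, a sequence that muscle transcription factors of the Myog family can bind, stood in 5 of the 12 and in 14.4% of all, and a MEF2 site stood in 1 of the 12 and in 1.55% of all. A match describes the letters and does not show that a factor binds there.

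Further genes outside the list also had the tissue above every library at 0 h. Of these, Myh7, Casq2 and Cdh15 were picked after their values were seen. The slow myosin Myh7 had scores of 27, 21 and 4 at 0 h and 189 in the tissue, and the calcium store protein Casq2 had 20, 27 and 6 against 183. Cdh15, a cadherin of muscle precursors, had 30, 31 and 15 against 213. Col22a1, a collagen known at the junction of muscle and tendon and one of the 12 genes farthest above the range, had 171, 80 and 48 against 903. Rrad, a small GTPase of the RGK family and also one of those 12, had 20, 61 and 97 against 655, and its lowest library at 0 h was replicate 1.

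**Figure D2:**
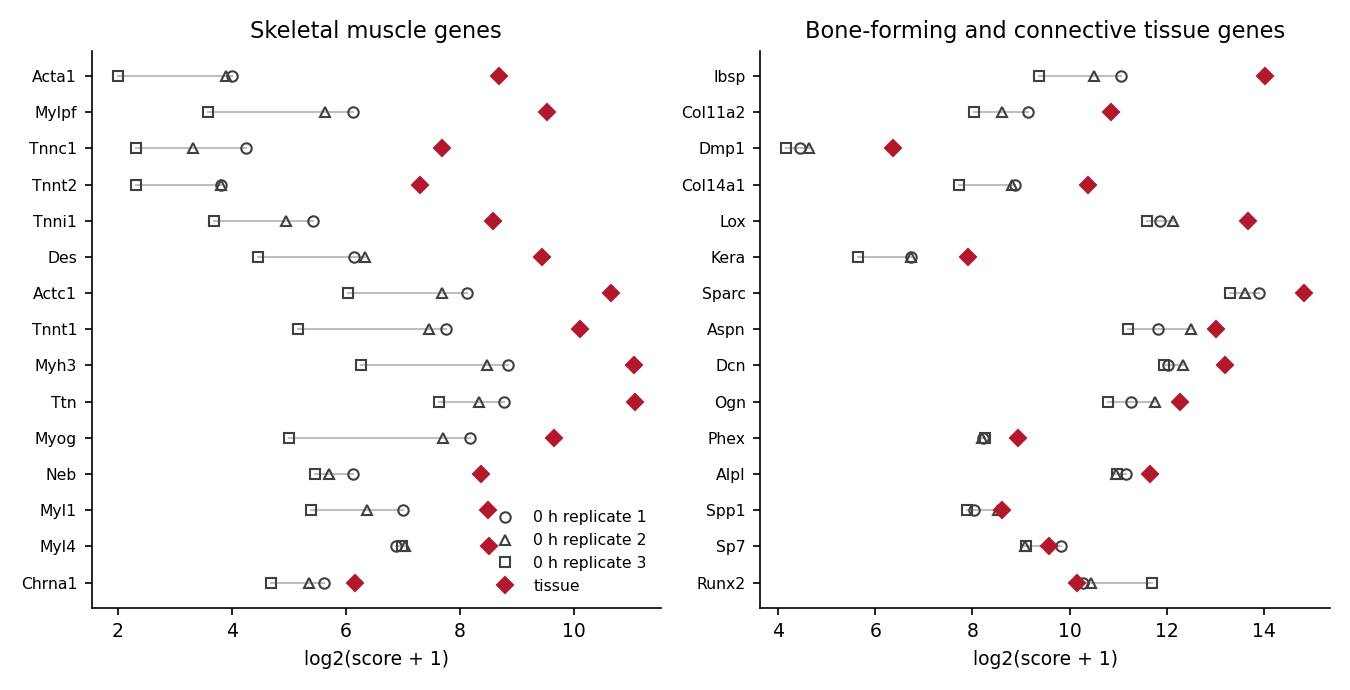
The horizontal axes give log2(score + 1), open symbols the 3 libraries at 0 h, the grey line their range and the red diamond the tissue library. In all 15 muscle genes on the left the tissue lies to the right of the range, while on the right the bone genes Ibsp and Dmp1 lie far above it and Sp7 and Runx2 inside or below it.

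Bone-forming cells gave a divided picture. Of 16 listed genes 10 were measured, 6 lay above the range, 1 below and 2 were called higher, with a median log2 difference of 0.36. Ibsp, bone sialoprotein, a secreted protein of mineralizing matrix (chr5:104299171-104311469, plus strand, 7 exons), had scores of 2114, 1448 and 657 at 0 h and 16538 in the tissue, 13.1-fold above the mean at 0 h on the log2(score + 1) scale. Dmp1, a matrix protein of osteocytes and odontoblasts, had 21, 24 and 17 against 82. Alpl, the alkaline phosphatase of mineralizing cells, had 2288, 1988 and 2008 against 3216 and was above the range without a call. The bone transcription factors did not share this: Sp7 had 901, 541 and 550 against 765, inside the range, and Runx2 had 1245, 1380 and 3327 against 1133, below it. Picked after the values were seen, the osteoblast and cartilage channel Panx3 had 486, 332 and 226 against 1195. The cytokine Tnfsf11, which drives osteoclast formation, had 200, 439 and 450 against 834, and Ctsk, the collagen-digesting protease of osteoclasts, had 741, 1030 and 781 against 2516.

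Collagens and other matrix genes moved in both directions. Among 38 measured, 12 were above the range and 13 below, 5 were called higher and 3 lower, and the median log2 difference was 0.00. On the higher side, Lox, the enzyme that crosslinks collagen and elastin, had scores of 3719, 4470 and 3091 at 0 h and 12971 in the tissue. Sparc, a collagen-binding glycoprotein, had 15128, 12523 and 10111 against 28882. Col14a1, a fibril-associated collagen, had 471, 452 and 211 against 1333. The dermal matrix protein Dpt, among the 12 genes farthest above the range, had 201, 210 and 42 against 1357. In all 4 of these genes replicate 3 was the lowest library at 0 h.

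The matrix genes called lower were 1 glycoprotein and a pair of collagen chains. Col6a3, a chain of microfibrillar collagen VI, had scores of 31828, 40654 and 127101 at 0 h and 13663 in the tissue. Tnc, tenascin C, an adhesion-modulating protein of condensing mesenchyme, had 16457, 12034 and 20818 against 6290. For Col12a1, a fibril-associated collagen, all 3 libraries at 0 h held the ceiling score of 127101 and the tissue had 40680, so the size of its difference is not known. Among the main fibrillar collagens, Col1a2 and Col3a1 were at the ceiling in all 4 libraries and cannot be compared, and Col1a1 had 23192, 20857 and 23192 against 25013.

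The small leucine-rich proteoglycans, which decorate collagen fibrils, were put together after their values were seen, and their counts support nothing. Of 9 measured, 4 were called higher, or 2 without replicate 3, and 1 lower. Kera, keratocan, had 106, 105 and 49 against 241, Aspn, asporin, had 3591, 5786 and 2368 against 8305, and Dcn, decorin, had 4150, 5121 and 3914 against 9424. Prelp ran the other way, with 35, 32 and 76 against 15. Transcript length moved with the difference over the whole table: the median log2 difference went from 0.08 in the shortest of 5 equal classes of transcripts (106 to 1480 bases) to -0.13 in the longest (4807 bases or more). Replicate 3 at 0 h stood on the other side of its fellow libraries, from -0.15 in the shortest class to 0.14 in the longest. The part of length in the lists was not tested gene by gene, but with every library centred within 20 length classes the matrix list had a median of 0.05.

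Transcription factors of dental mesenchyme were mostly lower in the tissue. All 28 measured, which include the markers that define the tissue, had scores above 0 in all 4 libraries. Of these, 18 lay below the range at 0 h, 2 above it and 4 were called lower, with a median log2 difference of -0.44. The 4 called were Tfap2b, Gli2, Dlx2 and Lef1. Tfap2b, an AP-2 factor of neural crest, had scores of 1828, 2339 and 4601 at 0 h and 1023 in the tissue. Gli2, an effector of Hedgehog signalling, had 452, 424 and 1054 against 244. Dlx2, a homeobox gene of early tooth mesenchyme, had 324, 376 and 751 against 190, and Lef1, an effector of Wnt signalling, had 570, 531 and 1178 against 349. In each of the 4 replicate 3 was the highest library, and it was so in 20 of the 28 factors.

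The count of factors called lower depended on the libraries at 0 h. It was 1 without replicate 3, with a median of -0.34, 7 without replicate 2, with a median of -0.50, and 5 without replicate 1, where 1 factor was called higher. Dlx6, whose libraries at 0 h were close together, had 671, 551 and 599 against 307 and missed the 2-fold limit at a log2 difference of -0.98. Gli1, the transcriptional readout of Hedgehog signalling, had 1608, 1888 and 1650 against 1158. The homeobox factors Barx1 (2837, 3165 and 3050 against 2918) and Alx1 (172, 143 and 124 against 142) were inside the range. Alx4 was above it, with 385, 218 and 173 against 420. Centring by length gave a median of -0.46, with 3 factors called lower. No factor was 2-fold below the nearest library at 0 h.

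**Figure D3:**
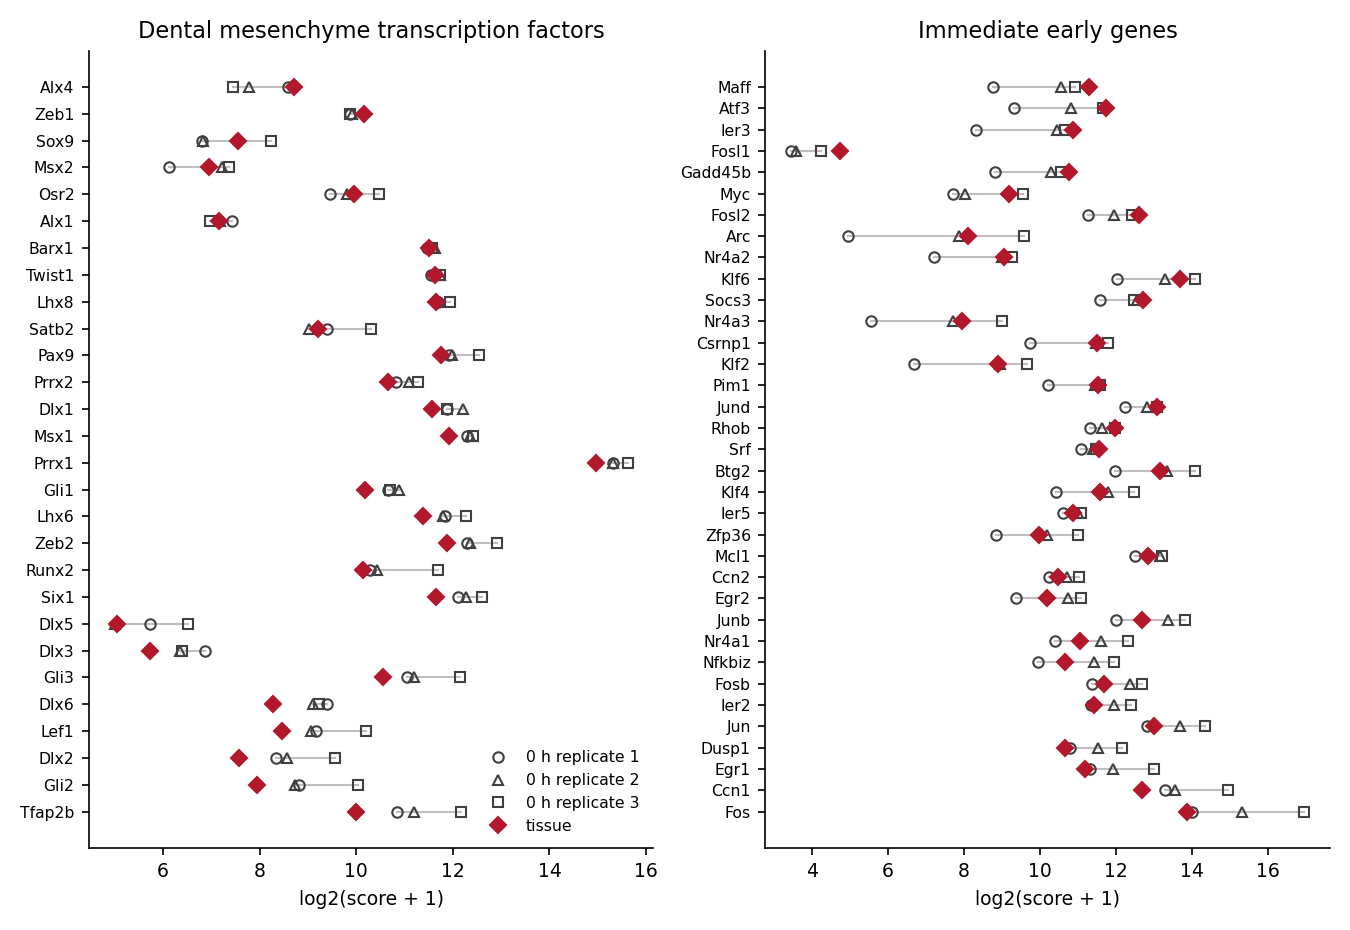
Open symbols are the 3 libraries at 0 h, grey lines their range and red diamonds the tissue, on a log2(score + 1) axis. On the left the tissue is below the range in 18 of 28 transcription factors, and on the right replicate 1 is the lowest library at 0 h in all 35 immediate early genes, with the tissue inside the range in 22.

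Signals and receptors of the tooth germ showed no common direction. Of 37 measured, 16 were above the range and 9 below (15 without replicate 1), 2 were called higher and 1 lower, with a median log2 difference of 0.03. Without replicate 2 the median was 0.10. Fgf3, a growth factor that dental mesenchyme sends to the epithelium, had scores of 197, 519 and 204 at 0 h and 77 in the tissue. Igf1, an insulin-like growth factor, had 2546, 2228 and 1621 against 5281. Nog, a secreted antagonist of bone morphogenetic proteins, had 35, 52 and 138 against 172. Bmp4, a main odontogenic signal of the mesenchyme, had 1326, 1580 and 1436 against 1285, and Wnt5a had 2865, 3753 and 3833 against 2957. For Bmp4 the tissue was just below the range, and for Wnt5a it was inside.

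The immediate early genes varied widely among the libraries of freshly isolated cells. All 35 measured members were lowest in replicate 1 and 34 were highest in replicate 3, and their median range over the 3 libraries was 1.73 on the log2 scale, against 0.33 over all transcripts. Fos, the AP-1 subunit that opens this response, had scores of 16498, 40642 and 127101 at 0 h and 15089 in the tissue, and was called lower. Jun, its partner, had 7210, 13280 and 20857 against 8276. Btg2, an antiproliferative early gene, had 4065, 10466 and 17403 against 9217. The tissue held these 3 transcripts near the level of replicate 1 or between replicates 1 and 3.

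By the rule 9 early genes were above the range and 4 below, 3 were called higher and 2 lower, and 22 were inside. Ccn1, a matricellular protein, had 10111, 12096 and 31886 against 6634 and was called lower, though not without replicate 3. The called higher members were all just past the top library. Maff, a small Maf factor, had 435, 1521 and 1950 against 2529, Atf3, a stress-induced repressor, had 641, 1803 and 3264 against 3428, and Ier3 had 322, 1415 and 1627 against 1873. The list's direction depended on which library was set against the tissue. Its median difference was 1.12 from replicate 1, -0.03 from replicate 2 and -0.56 from replicate 3. Leaving out replicate 1 turned the median over the list from 0.23 to -0.39, with none called higher and 6 lower, and leaving out replicate 3 gave 0.50, with 9 higher and none lower. The chaperone Hspa1a, induced by heat and other stress, also varied within 0 h, with 4023, 567 and 5030 against 988.

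Plaur and Plau were higher in the tissue than in any library at 0 h. Plaur, the receptor that holds the protease urokinase at the cell surface (chr7:24462484-24475967, plus strand, 7 exons), had scores of 32, 53 and 50 at 0 h and 276 in the tissue, and averaged 2062 ± 251 (SD, n = 2) at 12 h. Plau, urokinase itself, had 465, 480 and 387 against 1054. Among 23 measured matrix proteases and inhibitors, 17 were above the range and 1 below, 3 were called higher and 1 lower, and the median difference was 0.35. Mmp10 was called on scores of 0 at 0 h and 3 in the tissue and is too low to read. Mmp9, a gelatinase, was the member called lower, with 1623, 1858 and 2892 against 977, a call that was lost without replicate 3.

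The next genes were picked after their values were seen. Tnfrsf12a, the receptor of the cytokine TWEAK, had 112, 204 and 314 against 1206. Hbegf, a ligand of the EGF receptor, had 152, 193 and 270 against 557, and Errfi1, a feedback inhibitor of that receptor, had 755, 1284 and 1864 against 3947. In a list of this pathway made at the same stage, 7 genes were measured, 4 were above the range and 2 below, and 3 were called higher, with a median of 0.86 that was 0.28 at a pseudocount of 16. Egfr itself was below the range, with 1742, 1571 and 1850 against 1196. The smooth muscle actin gene Acta2 had 543, 403 and 304 against 1678, and was at the ceiling score in cultured cells at 12 and 48 h. Tnfrsf12a, Hbegf, Errfi1 and Acta2 were lower in freshly isolated cells than in the tissue or in culture, and both comparisons share the libraries at 0 h.

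Of 14 measured p53 target genes, 9 were above the range, 1 below and 4 called higher, with a median of 0.43. All 4 had a mean score under 100, a class in which 14.2% of transcripts were called in either direction, and among the 10 members with a mean of at least 100 none was called and the median was 0.25. Cdkn1a, the cyclin-dependent kinase inhibitor p21, had scores of 16, 17 and 39 at 0 h and 158 in the tissue. Bbc3, a BH3-only killer protein, had 13, 52 and 76 against 209, and the death receptor Fas had 24, 31 and 40 against 140. Mdm2, the feedback ligase of p53, was inside the range with 940, 1360 and 1505 against 1436. Of 16 measured chaperones and stress enzymes, 4 were above the range (6 without replicate 1), 2 below (5 without replicate 2) and 10 inside, with a median of -0.05. The 2 called higher were Hmox1, heme oxygenase, with 190, 245 and 217 against 578, and Hspb1, a small heat shock protein, whose call was lost without replicate 2. In that setting the near-identical pair Hspa1a and Hspa1b was called lower.

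**Figure D4:**
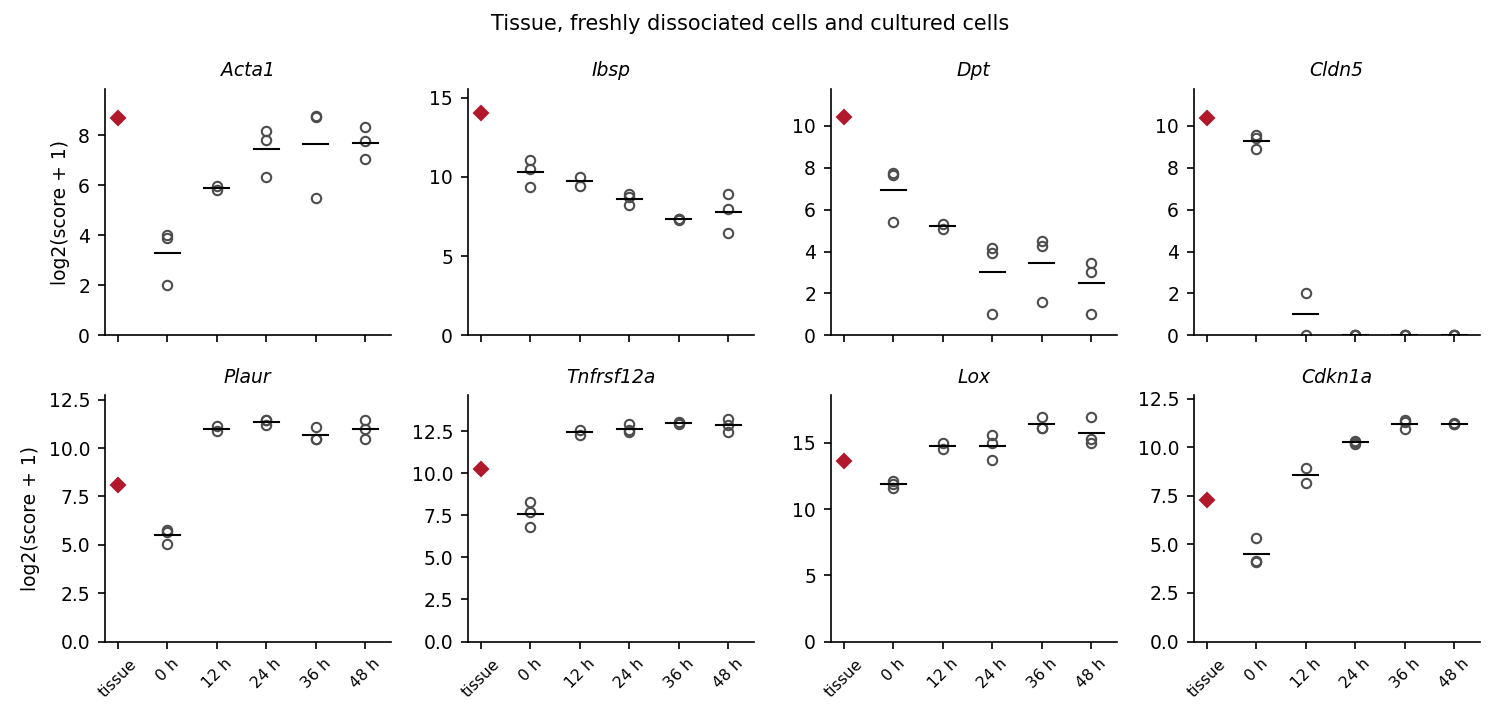
Scores of 8 genes as log2(score + 1) in the tissue (red diamond, 1 library), at 0 h and after 12, 24, 36 and 48 h of culture (circles are libraries, bars their means). Ibsp, Dpt and Cldn5 are highest in the tissue and low in culture, while Plaur, Tnfrsf12a, Lox and Cdkn1a are lowest at 0 h, intermediate in the tissue and highest in culture. Acta1 has its lowest mean at 0 h and rises in culture to a mean score of 302 at 36 h, against 412 in the tissue.

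The promoter of Plaur is shown for the AP-1 site TGACTCA, the sequence that Fos and Jun dimers bind, which stands in capitals from base 69 to base 63 before the start (chr7:24462233-24462482, plus strand, GRCm38.p6).
Plaur: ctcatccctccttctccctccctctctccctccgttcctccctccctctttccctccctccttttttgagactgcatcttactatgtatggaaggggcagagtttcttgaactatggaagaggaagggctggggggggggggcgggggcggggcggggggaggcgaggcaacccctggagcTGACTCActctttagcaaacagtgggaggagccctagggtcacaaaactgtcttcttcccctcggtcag
TGACTCA stood on either strand in 24 of the 204 windows of genes called higher (11.8%), in 2 of the 79 windows of genes called lower (2.53%) and in 3.14% of all 8534 windows. The related cAMP response element TGACGTCA, stood in 3 of the 204 windows and in 3.40% of all. A CArG box stood in 8 of the 204, in none of the 79 and in 1.24% of all. Genes called higher with a TGACTCA site included Plaur, Fas, Gbp2, Irgm1, Met, Procr and Srxn1. These are counts of letters in a fixed window, with no test.

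Of 21 macrophage and leukocyte markers 8 were measured, all 8 were above the range and 4 were called higher, with a median difference of 1.24. Laptm5, a lysosomal protein of blood cells, had scores of 73, 104 and 61 at 0 h and 341 in the tissue. C1qa, a complement subunit made by macrophages, had 95, 161 and 49 against 258, and Lyz2, lysozyme, had 113, 192 and 126 against 439. The general leukocyte marker Ptprc differed least, with 304, 343 and 287 against 371. The summed score over the 8 markers ran from 1659 to 2633 at 0 h and was 4257 in the tissue, and no marker was at 0.

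The interferon-inducible GTPases, which act against intracellular pathogens, were grouped after their values were seen, and their count supports nothing. All 6 measured were called higher. Gbp2 had 9, 16 and 15 against 131, Igtp had 49, 178 and 79 against 442, Irgm2 had 29, 122 and 110 against 328, and Irgm1 had 122, 354 and 219 against 739. Replicate 1 was the lowest library at 0 h in all 6. The interferon-linked factor Irf8 had 58, 244 and 228 against 683, and the adhesion receptor Icam1 had 363, 889 and 1118 against 2350. At 12 h of culture Igtp averaged 8.0 and Irgm2 8.0, below every library at 0 h, whereas Gbp2 averaged 104.

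Endothelial genes leaned the same way with smaller differences. Of 17 measured, 12 were above the range, none below and 1 was called higher, with a median of 0.44. The tight junction gene Cldn5 had scores of 688, 745 and 468 at 0 h and 1323 in the tissue, a call that was lost without replicate 3. Vwf, the von Willebrand factor of vessel walls, had 121, 169 and 154 against 281, but Kdr, a receptor of vascular endothelial growth factor, was inside the range with 2608, 2942 and 2466 against 2664. Among 13 measured genes of pericytes and smooth muscle, 8 were above the range, 2 below and 2 called higher. The 2 calls were Acta2 and Des, and Des is also counted among the muscle genes above. The low members were Notch3, with 3058, 2963 and 4150 against 2441, and Cspg4, with 1201, 1170 and 1360 against 993. Of 8 cartilage genes 6 were above and 1, the fibrillar collagen chain Col11a2, was called, with 563, 392 and 261 against 1857, and 3 were called without replicate 2. Schwann cell and neuron genes were divided, with 6 of 10 above and 3 below. Nefl, a neurofilament chain, had 832, 603 and 354 against 1584, and Ret, a receptor of neurons and their precursors, had 52, 112 and 90 against 28.

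Of 11 measured red cell genes, 2 were above the range, 3 below and 6 inside, with a median of 0.18 that was 0.08 without replicate 1. The 3 below were embryonic globins, made in yolk sac-derived red cells, and all 3 were called lower. Hbb-y had scores of 18558, 19258 and 40680 at 0 h and 6425 in the tissue, Hbb-bh1 had 164, 133 and 203 against 41, and Hba-x had 242, 202 and 577 against 82. In the 4 definitive globin genes the tissue was inside or at the edge of the range. Hba-a1 had 16489, 25013 and 19232 against 23192, and Hbb-bs had 36325, 70508 and 50354 against 70508. This rested on replicate 2, without which all 4 and 7 of the 11 red cell genes were above the range. Tal1, a transcription factor of blood formation, had 78, 104 and 85 against 160 and was above the range without a call. The definitive globins come in pairs of near-identical genes, so the authors' counting may have divided reads between them.

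Epithelial markers set apart a library at 0 h rather than the tissue. Replicate 1 was the highest at 0 h in all 13 measured. Krt14, a keratin of basal epithelium, had 5832, 645 and 838 at 0 h and 1900 in the tissue, and Krt5, its partner, had 4573, 422 and 467 against 1905. The adhesion molecule Cdh1 had 563, 48 and 41 against 157. The summed score over the 13 markers was 30554, 3372 and 3848 at 0 h and 11719 in the tissue, so the tissue lay between replicate 1 and the other two. Only Cldn4 was called. Without replicate 1, 10 of the 13 were called higher, with a median of 1.80.

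Of 27 measured genes of cell division, 21 lay below the range at 0 h, 6 inside and none above, and none was called. Their median log2 difference was -0.32. Mki67, the proliferation marker, had scores of 5959, 5959 and 8916 at 0 h and 4292 in the tissue. Plk1, a mitotic kinase, had 1230, 1084 and 966 against 687, and the replicative helicase subunit Mcm3 had 4680, 4791 and 4262 against 3325. The replication-dependent histones gave 16 of 17 below the range, none above and a median of -0.33, and Hist1h2bc had 10108, 9421 and 10725 against 5619. Histone genes are near-identical copies and few of their transcripts carry the tail that common library kits select, so single members are uncertain. Splicing factors were below the range in 17 of 33 and above it in 2, or 7 without replicate 1, with a median of -0.16.

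Oxidative phosphorylation genes were slightly higher, with 22 of 32 above the range, none below and none called, and a median of 0.20 that was 0.10 without replicate 3. Cox5b, a subunit of cytochrome c oxidase, had 2393, 2380 and 2002 against 3149. These transcripts are short, with a median length of 912 bases, and with libraries centred within length classes the list had 20 of 32 above the range and a median of 0.14. Histone transcripts are also short, at a median of 743 bases, and lay on the lower side. The part of length in either list was not tested gene by gene. Glycolysis and hypoxia genes had 9 of 26 above and 4 below, with a median of 0.13. Without replicate 1, 15 were above and the median was 0.23, and without replicate 2, 7 were below. Ndrg1, a hypoxia-responsive gene, was called higher with 388, 429 and 591 against 1244. Only 2 of 38 ribosomal protein genes were in the table, too few to describe the group. Integrins and cadherins, the surface proteins that bind matrix and neighbouring cells, had 5 of 22 above, 4 below and none called. Noncoding RNAs had 6 of 13 above, among them Rian of the imprinted Dlk1 cluster, with 17398, 17398 and 15623 against 28872.

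**Figure D5:**
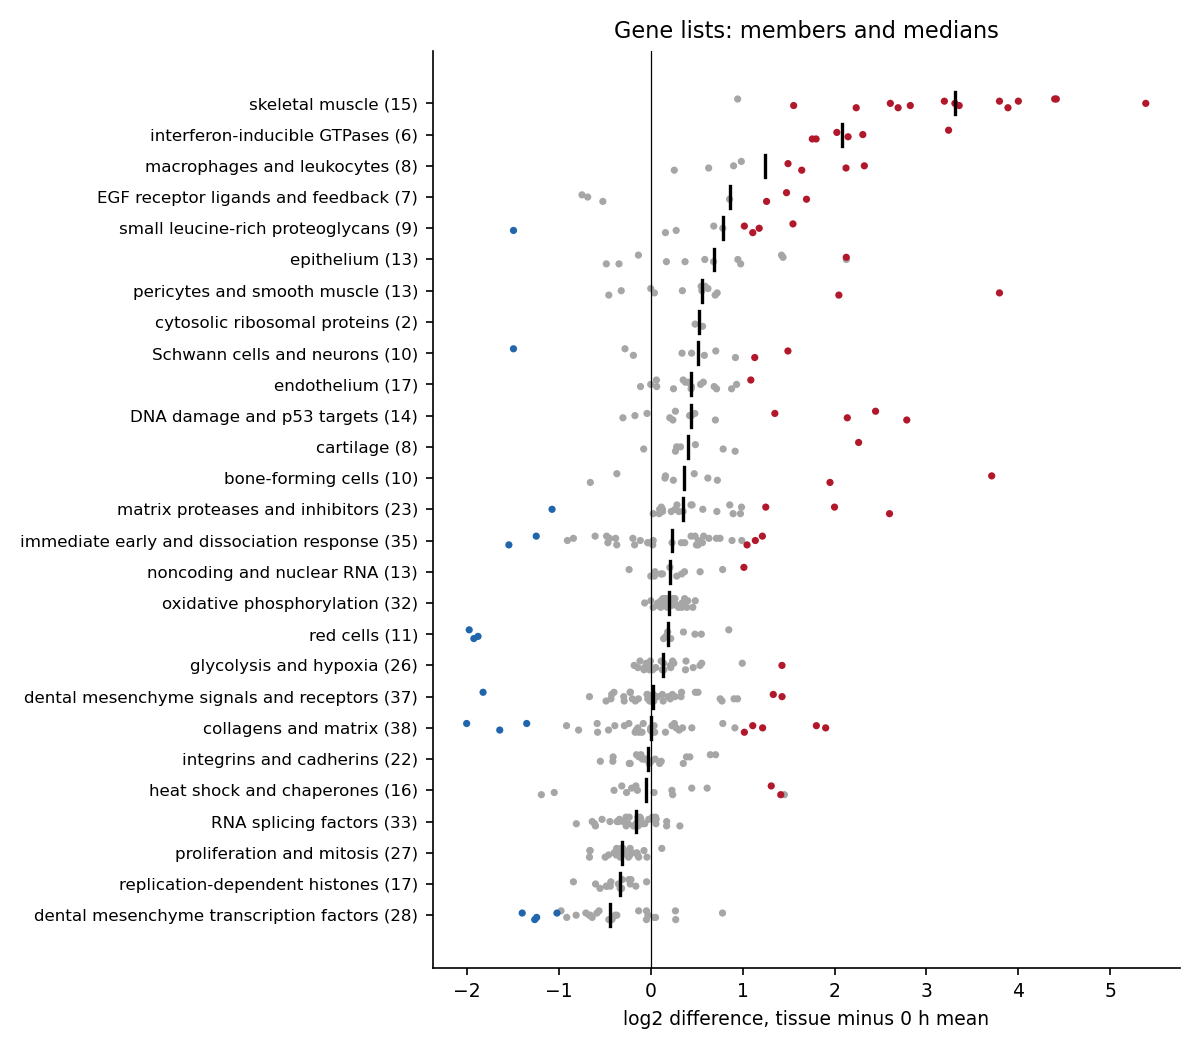
Each point is a measured gene, placed by its log2 difference of the tissue from the mean at 0 h, with the number of measured genes in parentheses, red for called higher and blue for called lower. Black bars are list medians, which run from -0.44 for the dental mesenchyme transcription factors to 3.31 for skeletal muscle.

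Of the named lower transcripts, 5 have near-identical copies. Sprr2a2 had scores of 323, 269 and 278 at 0 h and was listed at 0 in the tissue. Gm12355, a copy of the splicing factor gene Srsf3, had 928, 819 and 780 against 2. Gm6768, a processed pseudogene, had 384, 592 and 424 against 3, and Rpsa-ps10, a pseudogene of the ribosomal protein gene Rpsa, had 17348, 15081 and 15081 against 361. Ahcy, which encodes S-adenosylhomocysteine hydrolase, had 725, 533 and 982 against 78. BLASTN placed each of the 5 on a transcript of another gene at high identity: Sprr2a2 at 100% with Sprr2a1, Gm12355 at 98.3% with Srsf3, Gm6768 at 99.9% with Ncoa4, Rpsa-ps10 at 99.3% with Rpsa and Ahcy at 99.7% with Gm4737. In all 5 the tissue was more than 4-fold below the lowest of the other 14 libraries, cultured cells included. The assignment of reads between such copies is uncertain, and its part in these values was not tested.

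The same search found no transcript of another gene for Enpp1 and Troap, and none at 95% identity over 200 bases for Foxd1. Enpp1, which makes the mineralization inhibitor pyrophosphate (chr10:24637914-24712158, minus strand, 25 exons), had scores of 1537, 2077 and 2069 at 0 h and 489 in the tissue, a 3.83-fold difference with an SD of 0.25 on the log2 scale at 0 h. Foxd1, a forkhead factor of neural crest mesenchyme, had 189, 184 and 165 against 55. Troap, a spindle protein, had 143, 166 and 142 against 49. In these 3 genes the tissue was below the lowest library at 0 h by more than the spread of the 3.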

How the data were processed

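Mouse dental mesenchyme tissue (1 library) and freshly isolated mDMCs (3 libraries) were compared by RNA-seq. Per the labels, total RNA was extracted by column and libraries were made with an Illumina RNA kit. According to the study's methods the authors trimmed reads, mapped them to the mouse transcriptome (mm10, Ensembl) with bowtie and estimated expression with RSEM, for which those methods and the submitters' processing notes name different versions. What the authors deposited is a table of scores, rounded to whole values, in which the libraries share one distribution. It is named as cpm, but library totals between 21357605 and 21365980 go against that unit, and the normalization step is not given in the sources used here.

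Groups were taken from the sample titles. Transcripts were matched to GENCODE M21 (GRCm38), 11973 of 12089, for 11960 genes, and 116 were left out. For 13 genes with 2 transcripts, lists used the one with the higher mean. Scores were analysed as log2(score + 1). Members of the comparison and the lists were chosen with earlier results of these data known, and 3 lists were added after the values were seen. Named genes were the 12 farthest beyond the range at 0 h in each direction among called transcripts with a mean of at least 100, and up to 4 members of each list by the same distance (2 by mean where none was outside). Other genes were chosen after their values were seen, and not all genes the rule gives are printed. The results of 2 further genes are not reported here. The rule was tested only on simulated data, with noise independent between transcripts and no change planted at low scores. The shifts that many genes share within 0 h were not simulated.

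Alternatives were a pseudocount of 16, a mean of at least 100, 2-fold beyond the nearest library, 1.5-fold and 3-fold limits, trimmed-mean scaling and each library at 0 h left out. Centring within 20 length classes, and the sites for MEF2 and CAGCTG, were added after the data were seen. Copies were sought with BLASTN 2.17.0. Promoters are from RefSeq (GRCm38.p6). Python 3.11.15, numpy 2.4.6, pandas 2.3.3, scipy 1.17.1 and matplotlib 3.10.9 were used.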

Additional observations from a re-analysis of the deposited data

How the results depend on the processing

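The 293 transcripts called higher became 179 and the 139 called lower 82 among transcripts with a mean of at least 100, and 154 and 48 when 2-fold beyond the nearest library at 0 h was asked. A limit of 1.5-fold gave 794 and 670, and 3-fold gave 115 and 29. A pseudocount of 16 left 76 called lower. A larger pseudocount shrinks log2 differences by arithmetic, most at low scores, and the other changes follow from the altered limits themselves. Trimmed-mean scaling, centring by length and the pseudocount for the higher calls stayed within 1.5 times. Leaving out 1 library at 0 h gave 307 to 374 called higher and 128 to 204 lower. No named gene that had been called changed its direction under any of these settings. Of the 59 named genes that were called, leaving out replicate 1 at 0 h lost Maff, replicate 2 lost Hspb1, and replicate 3 lost Ccn1, Gli2, Dlx2, Cldn5 and Mirg. The limit of 2-fold beyond the nearest library lost 13 of them. The medians of the immediate early genes and of epithelium leaned on replicate 1, as given beside them, and that of skeletal muscle stayed between 2.52 and 3.78 with any library left out. No paired analysis was possible because the tissue has 1 library and shares fewer than 2 replicate numbers with 0 h. Depth is unknown, and with 1 tissue library no difference has a replicate check on that side.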

Other observations

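Y-linked genes were read in the tissue and at 0 h, in embryos whose sex the labels do not give. Usp9y, chosen after its values were seen, had scores of 36, 17 and 30 at 0 h and was listed at 0 in the tissue, while Kdm5d had 924, 858 and 872 against 644. Usp9y aligned to Usp9x over 95.3% of its length at 83.4% identity.

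Beside the copies named above, 2 long noncoding RNAs were more than 4-fold below the lowest of the other 14 libraries in the tissue. Gm6634 was listed at 0 and Wincr1 had a score of 3, against lowest values of 8 and 16 in the other libraries. On the opposite side, 4 genes were over 4 times the highest of the other 14 libraries, namely Dpt, Col22a1, Tnnt1 and Ibsp. For Dpt the tissue had 1357 and the highest other library 210, and for Ibsp 16538 and 2114.

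Of the 116 transcripts without a gene symbol, 2 would be called higher and 1 lower by the same rule.

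The library that was lowest of the 3 at 0 h was not spread evenly over the called transcripts. Among 267 transcripts called higher without ties at 0 h, replicate 3 was the lowest in 51.7%, replicate 1 in 41.2% and replicate 2 in 7.12%. Among all 11399 transcripts without ties these shares were 45.1%, 31.0% and 23.8%. Among the 129 called lower, replicate 3 was the highest in 55.8%, against 35.1% of all.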
